A study of Mus musculus with 6 samples.

Results

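The genes described here encode MHC class I molecules: the classical heavy chains H2-K1 and H2-D1, the non-classical heavy chains H2-Q4, H2-Q6, H2-Q7, H2-T22, H2-T23 and H2-M3, the shared light chain B2m (beta-2 microglobulin), and Nlrc5, a transcriptional activator of class I genes. They were chosen by symbol, and all 10 were found among the 35598 genes of the tables. The study profiled CNS-associated macrophages, the macrophages of the brain's borders, by RNA sequencing of cells sorted from brain as negative for CD3 and positive for CD11b, CD45 and CD206. All mice were male C57BL/6, with no treatment or transgene given in the labels. The young group was 2 months old and the aged group 18 months old, with 3 libraries each. The labels do not say whether libraries of a group came from separate or pooled animals, so the spread behind each p-value is that between these libraries and may be technical.

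A class I molecule is a heavy chain paired with B2m and loaded with a peptide in the endoplasmic reticulum. Classical molecules show peptides from inside the cell to CD8 T cells, and nearly all nucleated cells carry them. Non-classical molecules have narrower roles: H2-T23 (Qa-1) is read by NKG2A receptors on NK and T cells, H2-M3 presents formylated peptides, H2-Q6 and H2-Q7 encode Qa-2 molecules, and H2-T22 is a ligand of some gamma delta T cells. NLRC5 and interferon both raise transcription of class I genes.

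Class I promoters share short elements near the start site: a site for NF-kB, one for interferon regulatory factors, and the X and Y boxes at which NLRC5 is recruited. Promoters from RefSeq (GRCm38.p6) matched 9 members; Nlrc5 had no entry. The 250 bases before the start site were searched on both strands for GGGATTCCC (NF-kB), AAGTGAAA and GAAANNGAA (interferon response, which overlap in H2-T22), TGACG (the core of the site of CREB and ATF factors, part of the X box) and CCAAT (bound by NF-Y at the Y box). The stretches below are shown to set a classical chain (H2-K1), 2 near relatives with unlike values (H2-Q6 and H2-Q7) and the light chain (B2m) side by side. The motifs were picked after these sequences were seen. Capitals mark a match to any of these motifs on either strand, and each run is printed 5′ to 3′ on the strand of the gene.
H2-K1 (chr17:34000354-34000462, minus strand): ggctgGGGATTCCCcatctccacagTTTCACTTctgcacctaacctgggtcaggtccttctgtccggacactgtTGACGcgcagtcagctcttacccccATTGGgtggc
H2-Q6 (chr17:35424673-35424804, plus strand): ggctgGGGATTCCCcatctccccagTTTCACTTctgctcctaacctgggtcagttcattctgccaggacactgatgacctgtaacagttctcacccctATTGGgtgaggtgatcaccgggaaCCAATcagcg
H2-Q7 (chr17:35439018-35439148, plus strand): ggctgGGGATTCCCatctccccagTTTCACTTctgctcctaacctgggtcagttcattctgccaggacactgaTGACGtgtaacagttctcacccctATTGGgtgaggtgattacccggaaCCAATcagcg
B2m (chr2:122147543-122147643, plus strand): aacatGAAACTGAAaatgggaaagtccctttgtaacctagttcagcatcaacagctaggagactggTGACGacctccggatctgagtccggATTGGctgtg

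The letters of the NF-kB motif were in 4 of the 9 promoters (H2-K1, H2-D1, H2-Q6 and H2-Q7), against 0.311% of 27025 promoters of the same length. AAGTGAAA was in 7 of 9 (1.44% of all), all but H2-T23 and B2m, and GAAANNGAA was in 3 of 9, H2-T22, H2-T23 and B2m (7.16%). TGACG was in 7 of 9 (17.9%), with H2-Q6 and H2-T23 lacking these letters, and CCAAT in all 9 (34.5%). A match describes letters in this window and not a site shown to be used.

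The libraries held 26605077 to 33306093 counts. Markers fixed for border macrophages were all tested (12 of 12) and summed to 37226 to 44358 CPM (CPM stands for counts scaled to library size, here with TMM, the trimmed mean of M-values) in young and 35390 to 39662 CPM in aged libraries, with Apoe and Pf4 the most abundant. The genes of this list did not stay level: 3 of 12 had fitted values above 0, 5 were lower in every aged library than in the young ones (7.19% of all genes tested), and 4 were lower at an unadjusted p under 0.05 (2.04% of all genes tested), namely Mrc1, Pf4, Ms4a7 and Dab2. Mean Pf4 was 12703 ± 1185 CPM in the young group and 4772 ± 2369 CPM in the aged group, while Apoe was at 15262 ± 2085 and 24318 ± 3824 CPM, and Apoe made up most of the sum in each aged library; the part of these shifts in the results was not tested. Mrc1, which encodes the CD206 of the sort, was found in every library, at 2674 to 2940 CPM in young and 1182 to 2345 CPM in aged ones. Markers of microglia, the macrophages of the brain tissue, were also present (12 of 12 tested) and had sums of 5833 to 8393 CPM in young libraries and of 11084 to 18432 CPM in aged ones. Aged replicate 2 had the highest microglia sum, the lowest border macrophage sum and the highest level of 6 of the 8 heavy chains. Aged replicate 3 stood apart in neutrophil transcripts, at 6.65 CPM summed against at least 7695 CPM in each other library.

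All 8 heavy chain genes had a fitted difference above 0 with age, 5 members had every aged value above every young one, and 0 of 10 passed the test. The threshold was an adjusted p of 0.05 in edgeR's quasi-likelihood test, adjusted over all 10661 genes tested, at which 1 gene was higher (0.00938% of those tested) and 0 lower (0%). Of the members, 9 had a fitted value above 0, as did 49.3% of all genes tested. All 10 members passed the low-count filter. At an unadjusted p under 0.05, 4 members were higher (H2-K1, H2-D1, H2-T23 and H2-Q7), where 3.63% of all genes tested were, and 0 were lower, where 2.04% were. The members without overlap between groups were H2-K1, H2-D1, H2-M3, H2-Q4 and H2-Q7, against 7.54% of all genes tested with aged higher and 7.19% with aged lower (0 members). Among genes whose mean reached 50 CPM those shares were 11.2% and 8.45%, and 3 of the 5 members at that level (H2-K1, H2-D1 and H2-M3) had no overlap. The count of 4 was 3 (H2-T22, H2-T23 and H2-Q7) without young replicate 1, where 4.1% of all genes tested were higher. It was 2 (H2-D1 and H2-Q7) without young replicate 3 (4.15%). It was 1 (H2-Q7) without young replicate 2 (3.58%) or without aged replicate 2 (2.71%). Without aged replicate 1 the count stayed at 4 (4.27%), with H2-M3 in place of H2-T23. It was 5 without aged replicate 3 (3.28%), where H2-T22 joined. By the DESeq2 Wald test it was 6 (5.49%), where H2-T22 and H2-Q4 joined. The median log2 fold change was 1.45 over the 10 members and -0.02 over all genes tested. The microglia markers were higher in the same aged libraries as the heavy chains and their part was not tested; in bulk samples, more cells of a type and more RNA per cell cannot be told apart.

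**Figure D1:**
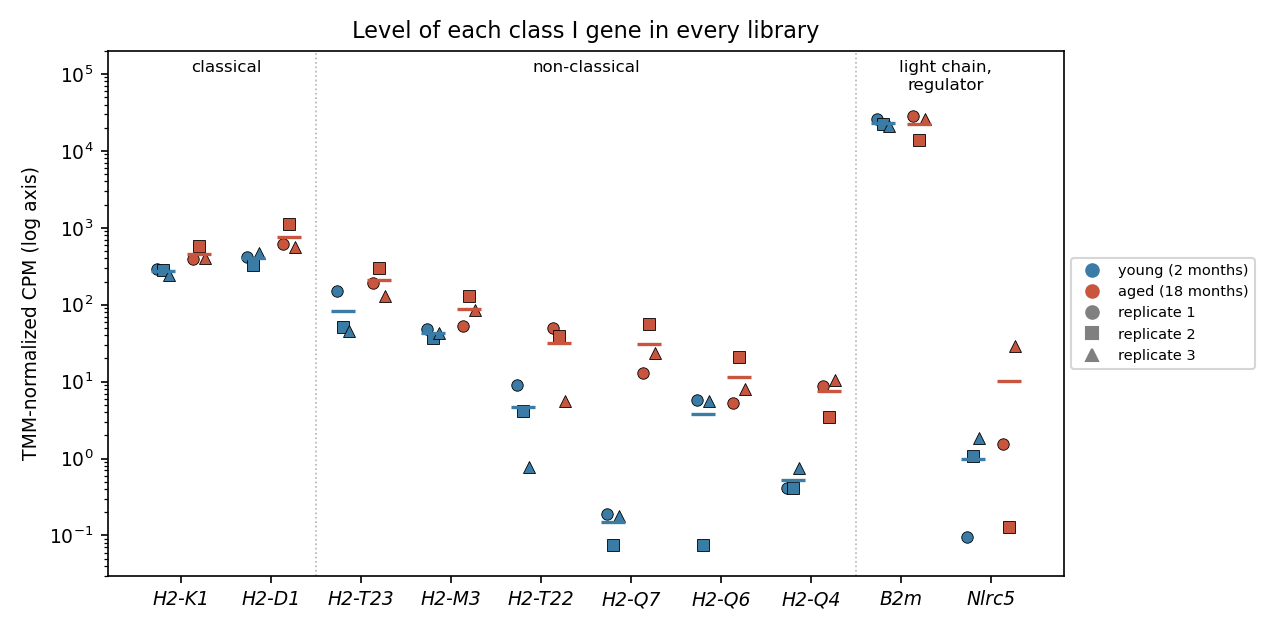
TMM-normalized CPM (log axis) of the 10 genes in each library; blue is young and red aged, circles, squares and triangles are replicates 1, 2 and 3, and bars are group means. H2-K1, H2-D1, H2-M3, H2-Q7 and H2-Q4 show no overlap between the groups, and B2m and Nlrc5 overlap.

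Of the classical chains, H2-K1 (ENSMUSG00000061232.16, mm10 chromosome 17, 33996017 to 34000347, minus strand) was at 292, 283 and 245 CPM in young replicates 1 to 3 and at 394, 583 and 403 CPM in aged replicates 1 to 3. Each aged library lay above each young one, and aged replicate 2 was the highest. Its means were 273 ± 25.1 and 460.1 ± 106 CPM (SD, n = 3 each), a log2 fold change of 0.75 (SE 0.30, edgeR adjusted p = 0.808). H2-D1 (ENSMUSG00000073411.12, chromosome 17, 35262730 to 35267499, plus strand) was at 417, 330 and 464 CPM in young and at 615, 1116 and 562 CPM in aged libraries. The groups again did not overlap, and aged replicate 2 stood far above the others. Its means were 404 ± 68.0 and 764 ± 306 CPM (n = 3 each), a log2 fold change of 0.92 (SE 0.35, edgeR adjusted p = 0.780), and 0.55 without aged replicate 2.

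Among the non-classical chains, H2-T23 (ENSMUSG00000067212.8, chromosome 17, 36029773 to 36032855, minus strand) was the most abundant. It was at 152, 51.3 and 45.4 CPM in young and at 190.2, 304 and 129 CPM in aged libraries. Young replicate 1 lay above aged replicate 3, so the groups overlapped. Its log2 fold change was 1.33 (SE 0.55, edgeR adjusted p = 0.840), with 0.95 without aged replicate 2 and 2.10 without young replicate 1 at the ends of the range over the libraries left out. H2-M3 (ENSMUSG00000016206.6, chromosome 17, 37270220 to 37274484, plus strand) was at 48.0, 36.4 and 42.8 CPM in young and at 52.3, 128 and 84.7 CPM in aged libraries. The lowest aged value lay just above the highest young one, and the fitted log2 fold change was 1.06 (SE 0.51, edgeR adjusted p = 0.895), with 0.69 without aged replicate 2.

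H2-T22 (ENSMUSG00000056116.18, chromosome 17, 36037128 to 36042747, minus strand) was at 8.97, 4.13 and 0.787 CPM in young and at 49.96, 39.2 and 5.66 CPM in aged libraries. Aged replicates 1 and 2 were high, while aged replicate 3 lay within the young range. The log2 fold change was 2.77 (SE 1.30, edgeR adjusted p = 0.892). Of the windows of 100 bases in its coding transcripts, 8.57% were identical to windows of H2-T10, a gene that held at most 2 counts in a library.

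H2-Q7 (ENSMUSG00000060550.16, chromosome 17, 35439155 to 35443773, plus strand) had the widest gap between the groups of the 10 genes. It had 6, 2 and 5 counts in the young libraries and 371, 2164 and 663 in the aged ones, or 0.192, 0.0744 and 0.179 CPM against 12.9, 56.1 and 23.4 CPM. The young values sit near the limit of detection, since 3 counts correspond to 0.090 to 0.113 CPM before scaling. The fitted log2 fold change was 7.65 (SE 1.48, edgeR unadjusted p = 0.000476, adjusted p = 0.378), a value that rests on these few young counts and was 3.61 on the log2(TPM + 1) scale and 6.31 on the log2(TPM + 0.1) scale (limma-trend). The TPM values also depend on the effective length of H2-Q7, which ran from 891 to 3905 bases between libraries (3905 in young replicate 2). Its longest annotated coding transcript is 1523 bases long. H2-Q7 was called higher by the DESeq2 Wald test (adjusted p = 1.75e-09), where 1.21% of genes were called higher and 0.426% lower, and by edgeR with no low-count filter (adjusted p = 0.0221), where 0.225% were called higher and 0.0485% lower.

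Its neighbour H2-Q6 (ENSMUSG00000073409.12, chromosome 17, 35424850 to 35430055, plus strand) overlapped between the groups. It had 179, 2 and 158 counts in young and 152, 810 and 226 in aged libraries, with a log2 fold change of 1.58 (SE 1.76, edgeR adjusted p = 0.993). The value was 0.80 without aged replicate 2, 1.00 without young replicate 2 and 2.82 in limma-voom. Young replicate 2 held 2 counts of each gene. H2-Q7 took 3.24% (95% Wilson interval 1.49 to 6.89), 50% (15.0 to 85.0, from 4 counts) and 3.07% (1.32 to 6.98) of the counts of the pair in young libraries. In aged libraries its share was 70.9% (66.9 to 74.7), 72.8% (71.1 to 74.3) and 74.6% (71.6 to 77.3). The intervals describe counting error alone: without molecular identifiers, copies made by PCR count as separate reads. The coding transcripts of the 2 genes are related but not identical: 9.34% of the 100-base windows of H2-Q7 were found in H2-Q6 and 7.87% in H2-Q5, so a part of the reads can be split between copies. The family members H2-Q8 and H2-Q9 had no entry by symbol, so any reads from them could not be counted apart. Summed as 1 row, the pair had 185, 4 and 163 counts in young and 523, 2974 and 889 in aged libraries (log2 fold change 3.41, edgeR adjusted p = 0.798), with no overlap.

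H2-Q4 (ENSMUSG00000035929.11, chromosome 17, 35379617 to 35385290, plus strand) had 13, 11 and 21 counts in young and 250, 132 and 294 in aged libraries, or 0.416, 0.409 and 0.751 CPM against 8.69, 3.42 and 10.39 CPM. Each aged library was higher, with a log2 fold change of 3.82 (SE 1.79, edgeR adjusted p = 0.892). The antisense gene Gm11131 overlaps H2-Q4, and the library kit does not mark strand, so reads of the shared stretch cannot be told apart. Gm11131 had 736, 738 and 690 counts in young and 752, 484 and 191 in aged libraries, more than H2-Q4 in 5 of the 6.

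**Figure D2:**
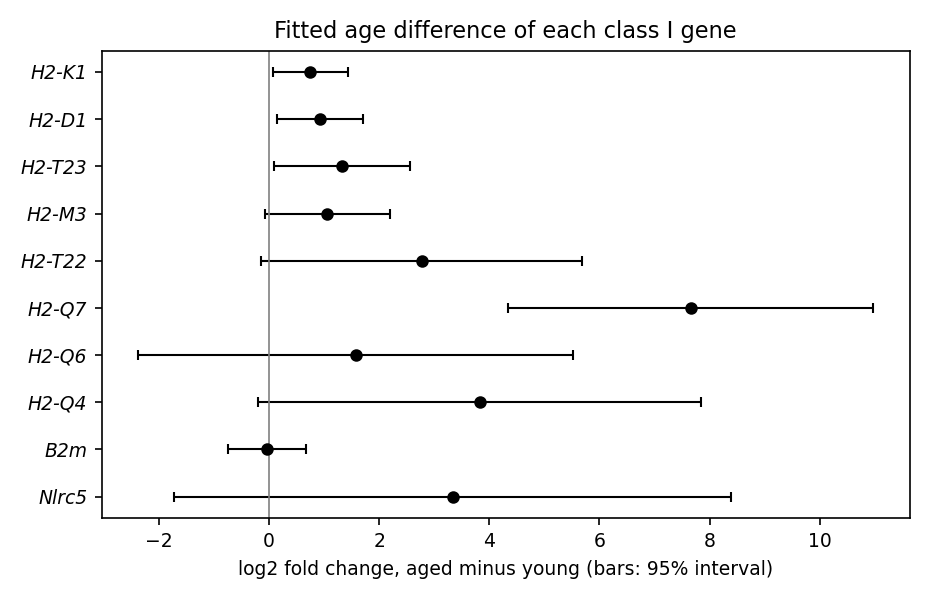
Fitted log2 fold change, aged minus young, of each gene with its 95% interval from edgeR's quasi-likelihood fit (3 libraries per group). Intervals are narrow for H2-K1, H2-D1 and B2m and wide for the genes with few counts, H2-Q4, H2-Q6 and Nlrc5.

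B2m (ENSMUSG00000060802.8, chromosome 2, 122147686 to 122153083, plus strand) was by far the most abundant member. It was at 26011, 22200 and 21290.0 CPM in young and at 28000, 13826 and 26139 CPM in aged libraries. Aged replicate 2, which had the highest H2-K1 and H2-D1 levels, had the lowest B2m level of all 6 in CPM. In TPM its level (15819) lay above those of young replicates 2 (14657) and 3 (14404). However, TPM ran high against CPM in this library for H2-D1 too. H2-D1 was at 431 TPM and 1116 CPM there (effective length 1670 bases). In aged replicate 1 it was at 148 TPM and 615 CPM (1706 bases). The log2 fold change of B2m was -0.03 (SE 0.31, edgeR adjusted p = 0.997, 95% interval -0.74 to 0.67), and without aged replicate 2 it was 0.23 and the groups no longer overlapped. The upper bound lies below the values fitted for H2-K1 and H2-D1, but the difference between genes was not tested. Per unit of length (TPM, a unit scaled for depth and length), B2m stood at 33.1, 36.5 and 36.9 times the summed heavy chains in young libraries. In aged libraries the ratio was 27.2, 10.05 and 29.4, each below the young range.

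Nlrc5 (ENSMUSG00000074151.13, chromosome 8, 94434356 to 94527272, plus strand) was scarce and uneven. It had 3, 29 and 51 counts in young and 44, 5 and 814 in aged libraries, or 0.0961, 1.08 and 1.82 CPM against 1.53, 0.130 and 28.8 CPM. In CPM, aged replicate 3 stood far above the other libraries; in TPM, aged replicates 1 (6.47) and 3 (8.24) both lay above the highest young library (2.75). The effective length of Nlrc5 in the tables ran from 97.0 to 1467 bases between libraries. The log2 fold change was 3.34 (SE 2.26, edgeR adjusted p = 0.974) and turned to -0.26 without aged replicate 3.

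Levels of different genes were compared per length. As described for B2m and H2-D1, TPM ran high against CPM in aged replicate 2, and the aged means and SDs in TPM include this library. Mean TPM ran from B2m (15024 ± 864 in young and 18228 ± 2105 in aged libraries) through H2-K1 (287 ± 32.0 and 589 ± 236), H2-D1 (95.3 ± 13.7 and 238 ± 167), H2-T23 (26.3 ± 18.6 and 86.1 ± 60.0) and H2-M3 (14.1 ± 1.55 and 38.4 ± 26.4). Below these, H2-T22, H2-Q7, H2-Q6, H2-Q4 and Nlrc5 had mean TPM of at most 1.40 in young and 15.8 in aged libraries. B2m, H2-K1 and H2-D1 did not overlap their neighbours in this order within young libraries. H2-T23 and H2-M3 overlapped in both groups, and H2-D1 and H2-T23 in the aged group. The order of H2-K1 and H2-D1 depends on the length used: H2-D1 had 1.17 to 1.91 times the counts of H2-K1 in each library but 0.275 to 0.4998 times its TPM. The effective length in the tables was 355 to 436 bases for H2-K1 and 1628 to 1760 bases for H2-D1, while annotated coding transcripts of H2-K1 are 579 to 1619 bases long. For H2-Q4 it ran from 1522 to 2356 bases, against 1793 bases for its annotated coding transcript.

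Non-classical chains were set against classical ones within each library. The summed TPM of the 6 non-classical chains was 16.2%, 8.24% and 8.41% of that of H2-K1 and H2-D1 in young libraries. In aged libraries it was 16.8%, 21.8% and 14.6%. Young replicate 1 lay above aged replicate 3, so the groups overlapped, with means of 10.9 ± 4.54% and 17.7 ± 3.70% (n = 3 each). H2-T23 made up 47.5% to 70.8% of the non-classical sum in young and 50.1% to 60.2% in aged libraries. Classical TPM alone summed to 360 to 416 in young and 585 to 1293 in aged libraries and non-classical TPM to 30.3 to 67.3 and 85.2 to 282, each without overlap. Fitted log2 fold changes had a median of 0.84 over the 2 classical and 2.17 over the 6 non-classical chains, against -0.02 over all genes tested; the larger non-classical values were those of H2-Q7, H2-Q4 and H2-T22, which have few young counts.

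**Figure D3:**
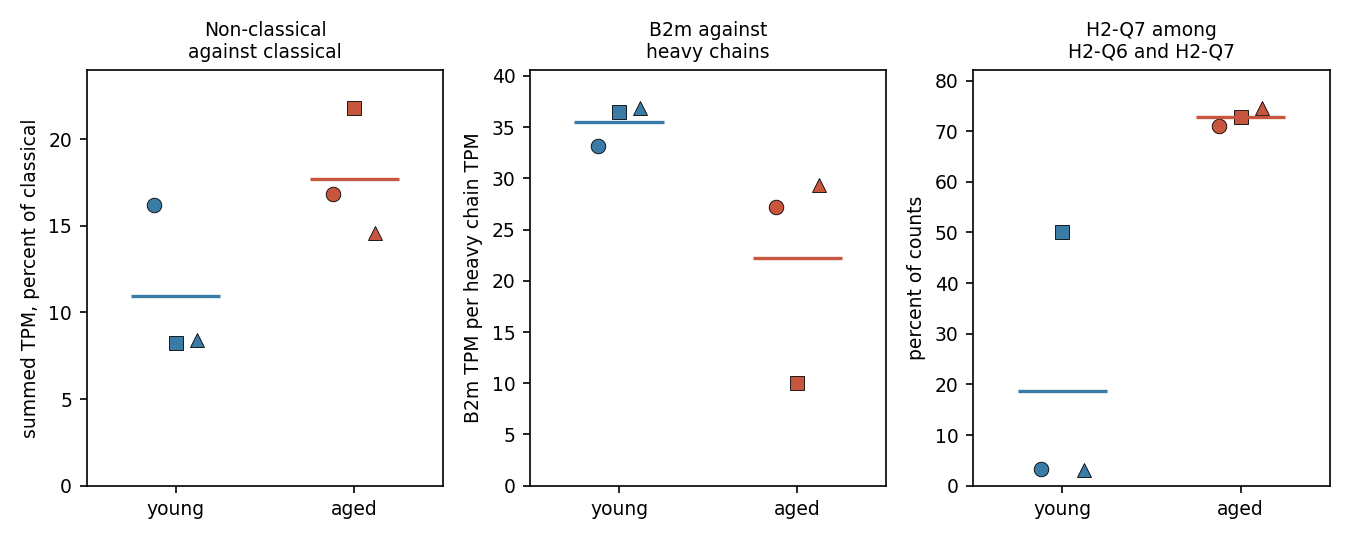
Ratios within each library by age group (circles, squares and triangles are replicates 1, 2 and 3, bars are group means): non-classical TPM as a percent of classical TPM, B2m TPM per heavy chain TPM, and H2-Q7 as a percent of H2-Q6 and H2-Q7 counts. The first ratio overlaps between groups at 16.2% in young replicate 1 and 14.6% in aged replicate 3, while B2m per heavy chain is lower in all 3 aged libraries; the young H2-Q7 share of 50% rests on 4 counts.

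The other genes of the class I route were taken from fixed lists. Of 16 genes of peptide loading, which cut peptides and carry them to class I molecules, 0 passed over all genes tested, 13 had fitted values above 0 (median 0.71; 49.3% of all genes tested were above 0) and 5 were higher in each aged library (7.54% of all genes tested). At an unadjusted p under 0.05, 1 of the 16 was higher (3.63% of all genes tested) and 0 were lower (2.04%). This gene, Psmb8, an immunoproteasome subunit named after its values were seen, was at 130 ± 44.8 and 304 ± 130 CPM. Its log2 fold change was 1.23 (SE 0.42, edgeR adjusted p = 0.707). Erap1, which trims peptides in the endoplasmic reticulum, was at 27.9 ± 24.2 and 86.7 ± 40.2 CPM without overlap, but at 0.149 CPM in young replicate 2. The means of the most abundant genes of the list differed by less than the larger of the young and aged SD. Canx, a chaperone of new heavy chains, was at 1023 ± 179 and 827 ± 318 CPM. Psme1, a proteasome activator, was at 318 ± 110.0 and 375 ± 19.6 CPM, and Pdia3, of the loading complex, at 249.6 ± 29.0 and 386 ± 212 CPM.

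Of 22 tested regulators of class I transcription, 0 passed, 14 had fitted values above 0 (49.3% of all genes tested) and 3 were higher at an unadjusted p under 0.05 (3.63% of all genes tested). Jak2, a kinase of interferon signalling named after its values were seen, was lower in each aged library, at 17.9, 11.17 and 15.95 CPM in young and at 11.05, 10.23 and 0.0353 CPM in aged libraries (edgeR adjusted p = 0.993). Ifngr1, a chain of the interferon gamma receptor, was at 149, 115 and 161 CPM in young and at 326, 812 and 651 CPM in aged libraries. Each aged value lay far above the highest young one, and the log2 fold change was 2.07 (SE 0.39, edgeR adjusted p = 0.378). Irf8, a myeloid interferon regulatory factor, was at 43.4 ± 9.10 and 99.5 ± 26.4 CPM without overlap (log2 fold change 1.20, edgeR adjusted p = 0.793). Irf1, which binds class I promoters and was named after its values were seen, was at 21.1 ± 8.27 and 73.5 ± 46.6 CPM with overlap. Ifnar2, of the type I interferon receptor, was at 356 ± 36.3 and 355 ± 50.2 CPM, and Irf2 at 93.6 ± 12.1 and 127 ± 39.3 CPM.

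Of 30 interferon-stimulated genes, 0 passed, 22 had fitted values above 0 (median 0.90; 49.3% of all genes tested were above 0) and 7 were higher in each aged library (7.54% of all genes tested). Ly6e, the most abundant, was at 2974, 2740 and 2921 CPM in young and at 5298, 5120 and 5576 CPM in aged libraries, a narrow spread within each group (edgeR adjusted p = 0.619). Oasl2 was at 24.2 ± 4.37 and 101 ± 75.9 CPM and Ifit3 at 74.7 ± 30.8 and 110 ± 13.7 CPM, both without overlap. Ifitm3 (960.4 ± 118 and 1686 ± 608 CPM) overlapped, and Bst2 was at 735 ± 63.4 and 703 ± 306 CPM.

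Other genes of the class I fold were mostly too scarce to test. Of 36 listed genes, 30 were measured, with H2-Q8 and H2-Q9 among those without an entry. Of the 30 measured genes, 5 were abundant enough to test, 0 passed and 1 had a fitted value above 0 (49.3% of all genes tested). Hfe, which takes part in iron sensing, was at 153 ± 75.5 and 135 ± 60.7 CPM, Fcgrt, which salvages IgG, at 125 ± 23.9 and 96.4 ± 68.1 CPM, and Mr1, which presents microbial metabolites, at 11.7 ± 5.51 and 13.8 ± 12.7 CPM. Of 7 tested genes on a list of class I receptors and their relatives, 5 had fitted values above 0 (49.3% of all genes tested) and 0 passed. Binding to class I was not examined for each. The most abundant were Lilrb4a at 75.0 ± 44.8 and 163 ± 64.7 CPM, Klra2 at 24.8 ± 19.3 and 70.3 ± 63.7 CPM and Lilr4b at 28.2 ± 30.4 and 41.1 ± 50.5 CPM.

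Genes with the most similar profile were found among 2184 other genes whose mean reached 50 CPM, by the root mean square difference of log2 CPM centred on the mean over the 6 libraries. H2-K1 was most like Grn (0.077), Marc2 (0.081) and Serinc3 (0.089), and H2-D1 was most like Cotl1 (0.161), Lgmn (0.161) and Ptpn6 (0.199). H2-D1 and H2-K1 differed from each other by 0.252. H2-D1 took rank 38 among the genes most like H2-K1, and H2-K1 took rank 11 among those most like H2-D1. H2-M3 took rank 60 for H2-K1 and rank 12 for H2-D1, while H2-T23 took ranks 800 and 529. B2m was most like Cox8a (0.083), Sf3b5 (0.090) and Timm10 (0.095), and its distance from H2-K1 was 0.656. All of these genes share the same 6 libraries and their scaling, so the measure is a description.

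Marker lists of other cells moved with the heavy chains in part. The summed heavy chains were at 924, 705 and 804 CPM in young and at 1328, 2250 and 1226 CPM in aged libraries. The microglia sum separated the same libraries (7482, 5833 and 8393 CPM in young, 11084, 18432 and 14653 CPM in aged), with 9 of its 12 genes higher at an unadjusted p under 0.05 (3.63% of all genes tested). Its part in the heavy chain result was not tested. Astrocyte (47.4 to 57.5 and 66.4 to 251.4 CPM) and oligodendrocyte sums (155 to 184 and 203 to 426 CPM) were also higher in each aged library, and erythroid (10100.0 to 30268 and 85.8 to 9862 CPM) and neuron sums (32.4 to 96.3 and 9.12 to 25.3 CPM) lower; their part was not tested.

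Summed markers of other cells overlapped between the groups, but single genes in these lists did not. Batf3, of the dendritic cell list, was at 0, 0.484 and 0 CPM in young and at 22.4, 15.9 and 23.2 CPM in aged libraries (edgeR adjusted p = 0.691). Ighm, of the B cell list, was at 81.4 ± 6.39 and 176 ± 62.7 CPM without overlap (edgeR adjusted p = 0.753). The part of these cells in the heavy chain result was not tested. Endothelial markers, from cells rich in class I, summed to 20.4 to 36.1 CPM in young and 15.3 to 29.7 CPM in aged libraries. T and NK cell markers (2 of 10 tested, with Gzma, Gzmb, Klrb1c and Ncr1 at 0 in every library) summed to 0.608 to 29.8 and 0.106 to 152 CPM. Dendritic cell (240 to 952 and 598 to 1103 CPM), monocyte (99.8 to 532 and 118 to 417 CPM), B cell (163 to 204 and 195 to 236 CPM), neutrophil (11983 to 37410 and 6.65 to 21439 CPM), choroid plexus (1118 to 11780 and 569 to 8172 CPM) and mural or fibroblast sums (1.75 to 13.1 and 0.347 to 2.56 CPM) overlapped. The choroid plexus sum was high only in replicate 3 of each group.

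**Figure D4:**
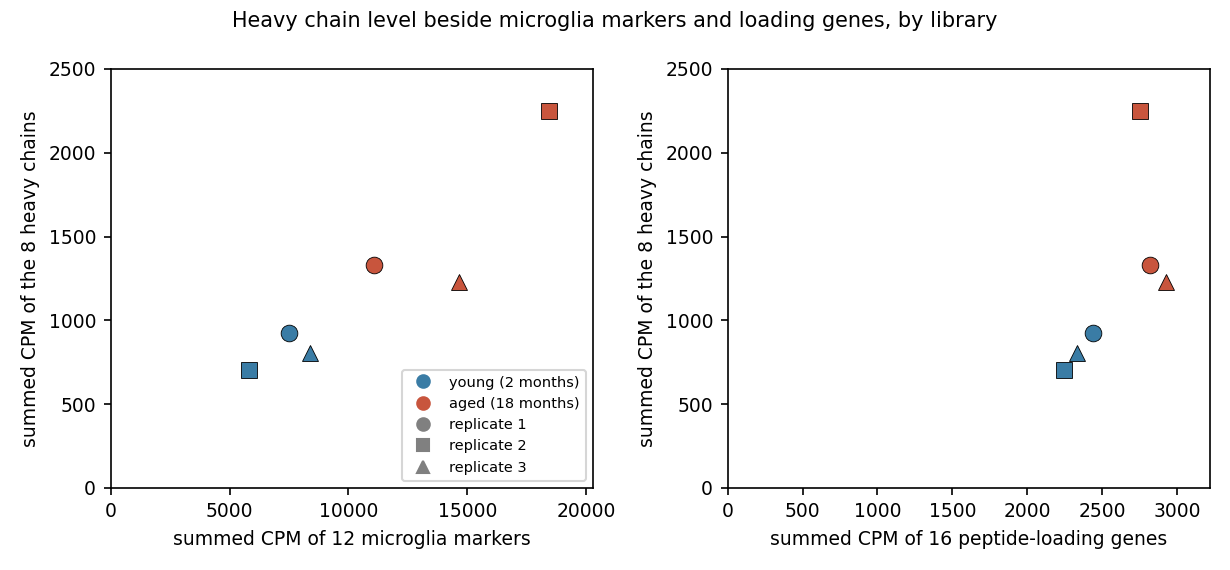
Summed CPM of the 8 heavy chains (vertical axis) against the summed CPM of the 12 microglia markers (left) and the 16 peptide-loading genes (right), with 1 point per library (blue young, red aged; circles, squares and triangles are replicates 1, 2 and 3). All 3 sums separate the age groups with aged above young. Aged replicate 2, at 2250 heavy chain CPM, is highest in heavy chains and microglia markers but has the lowest aged peptide-loading sum (2754 CPM).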

How the data were processed

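The submitters' processing notes name the mm10 build and the tools DRAGEN, Picard, fastp, FastQC and bcl2fastq 2.20; the role of each and the gene annotation used were not given in the sources used here. Per the file headers, the deposited values were estimated counts for each gene, TPM as scaled by the authors, and full and effective lengths in bases. Estimated counts were rounded to whole numbers here. Of 35598 identifiers, 35513 matched GENCODE M21 when the version was ignored, which gave symbols and mm10 coordinates.

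The test was that of edgeR 4.0.16 under R 4.3.3 (filterByExpr, TMM, robust quasi-likelihood F test, two-sided, no covariate), with p-values adjusted by the Benjamini-Hochberg method over 10661 genes. Errors are SD over 3 libraries; SE was obtained by dividing the size of the log2 fold change by the root of its F value. Alternatives used DESeq2 1.42.0, limma 3.58.1, other scalings and filters, a replicate block and leaving out each library.

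The members and lists were chosen with earlier results of these data known. Named were all members, the 3 most abundant genes of each list and up to 4 without overlap at a mean of at least 50 CPM, the 3 genes most like H2-K1, H2-D1 and B2m, and the most abundant marker genes. Of promoters, only stretches outside GENCODE exons were printed. Windows of 100 bases came from GENCODE M21 coding transcripts and were compared, identical on either strand, with all its transcripts.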

Additional observations from a re-analysis of the deposited data

How the results depend on the processing

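Genes called higher and lower (1 and 0) became 117 and 41 by DESeq2's Wald test, 51 and 11 when no gene was filtered out, 19 and 6 among genes whose mean reached 50 CPM, and 0 and 0 in limma-voom (559 higher and 377 lower at an unadjusted p under 0.05). Leaving out a library gave 0 to 2 higher and 0 to 1 lower. Members called higher (0) became 1, H2-Q7, by DESeq2's Wald test and without the filter. The 8 heavy chains kept a fitted value above 0 under every alternative in which they were tested, with H2-K1 between 0.55 and 0.97 and H2-D1 between 0.55 and 1.12, H2-T23 between 0.95 and 2.10, H2-Q6 between 0.80 and 2.82 and H2-Q7 between 3.61 and 8.03. B2m turned from -0.03 to 0.27 in limma-trend on log2(TPM + 1) and on log2(TPM + 0.1), 0.07 without young replicate 1 and 0.23 without aged replicate 2 (-0.20 to 0.23 over the libraries left out), and Nlrc5 turned from 3.34 to -0.26 without aged replicate 3 (-0.26 to 4.12); the cause was not tested. Members without overlap, aged higher (5), were the same 5 under each other scaling and 5 to 7 when a library was left out, which also raises the share of all genes (11.2% to 14.1%); these settings and the longest-transcript length were chosen after seeing the data. The non-classical percent of classical level, 10.9 in young and 17.7 in aged libraries, was 19.6 and 30.4 in CPM, 24.8 and 38.1 per base of the longest coding transcript, 14.6 and 24.6 against H2-K1 alone (H2-D1 left out), and 44.9 and 65.6 against H2-D1 alone, a setting also added after seeing the data. Libraries of the same replicate number had correlations of deviations of -0.013, 0.027 and 0.079, against -0.124 to 0.107 between unlike numbers. With so few libraries these values cannot exclude pairing, and the labels do not state it. The choroid plexus sum was high in replicate 3 of each group (11780 CPM young, 8172 CPM aged) and at most 1378 CPM in each other library. With the replicate block 1 gene was called higher and 0 lower, and 0 members were called. In that fit 2 members (H2-Q7 and H2-T23) in place of 4 were higher at an unadjusted p under 0.05 (3.34% of all genes tested). H2-K1 and H2-D1 there had log2 fold changes of 0.73 and 0.86. Depth limits H2-Q7, H2-Q4 and Nlrc5, with at most 51 counts in any young library, and H2-Q6, with 2 in young replicate 2.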
